A study of Mus musculus with 93 samples.

Results

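The carboxylesterases Ces1c, Ces1d, Ces1e, Ces1f, Ces1g, Ces2a, Ces2c, Ces2e, Ces3a and Ces3b were followed in the liver across 7 inbred mouse strains and 2 diets. They were taken by name, as the 10 genes of the count table whose Ensembl identifiers carry these symbols, out of 53465 genes in the table. All 10 passed the filter on low counts that left 19110 genes for testing. The table holds 10 further genes with a carboxylesterase symbol, which are described separately. Liver RNA was sequenced from 93 male mice kept at 30°C from 6 weeks of age. From 7 weeks they ate a matched control diet (CD, with 10% of calories from fat) or a western diet (WD, with 40%) for 17 weeks, and livers were taken at 24 weeks. The CD and WD groups held 8 and 8 C57BL/6J mice, 6 and 7 DBA/2J, 5 and 6 A/J, 7 and 6 129S1/SvImJ, 6 and 6 WSB/EiJ, 7 and 8 CAST/EiJ, and 6 and 7 PWK/PhJ. The labels give no engineered allele in any group, all mice were male, and each sample was bulk liver with its hepatocytes and other cells together. The mice were raised in 2 cohorts per strain, or 3 for CAST/EiJ, and each cohort of a strain held both diets.

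Carboxylesterases are serine hydrolases that split esters, amides and thioesters. In the liver they clear ester drugs and other foreign compounds, and several of them also cleave stored triglyceride and cholesteryl ester, which feeds the assembly of very low density lipoprotein (VLDL). Most are kept inside the endoplasmic reticulum by a short retrieval signal at the carboxyl terminus, of the kind written HXEL in the protein code, whereas Ces1c lacks it and is secreted into plasma, where it hydrolyses drugs. Ces1d is known as triacylglycerol hydrolase and takes part in mobilising lipid for VLDL. Ces1e is egasyn, which anchors beta-glucuronidase in the endoplasmic reticulum. Ces1f and Ces1g belong to the same subfamily and have lipase activity. Ces2a, Ces2c and Ces2e belong to the subfamily of human CES2, and genes of this subfamily are among those induced through the xenobiotic receptors CAR and PXR. Ces3a and Ces3b are liver carboxylesterases of a further subfamily.

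The ends of the coding sequences are shown because the retrieval signal, where a member has it, is encoded there. Where the products go was not measured. Each line gives the last bases of the coding sequence in the GRCm38 transcripts of the GENCODE annotation, 5′ to 3′, and the capitals mark the last 4 codons with the stop codon.
Ces1c: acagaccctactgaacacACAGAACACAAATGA
Ces1d: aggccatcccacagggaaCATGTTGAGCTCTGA
Ces1e: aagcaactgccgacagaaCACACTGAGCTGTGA
Ces1f: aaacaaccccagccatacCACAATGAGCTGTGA
Ces1g: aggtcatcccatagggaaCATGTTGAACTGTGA
Ces2a: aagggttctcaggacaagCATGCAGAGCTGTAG
Ces2c: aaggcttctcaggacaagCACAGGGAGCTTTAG
Ces2e: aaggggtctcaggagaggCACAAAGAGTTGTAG
Ces3a: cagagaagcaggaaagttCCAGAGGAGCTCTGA
Ces3b: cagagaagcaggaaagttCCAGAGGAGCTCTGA
In 7 members the last 4 codons read CAT or CAC, any codon, GAA or GAG, and a leucine codon. Ces3a and Ces3b, whose ends are identical, share only the last pair of these codons, and Ces1c has neither pair.

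All members lie on chromosome 8 (GRCm38). The 5 Ces1 genes sit on the minus strand at chr8:93099015-93337308, and the 5 Ces2 and Ces3 genes on the plus strand at chr8:104734003-105093929. Coding sequences were 74.45% to 95.27% identical within a subfamily, with the highest value for Ces3a and Ces3b, and 61.32% to 63.85% identical between subfamilies. Likeness of this kind bears on read counting, because reads that map to several places are left out of the gene counts. Of all 100-base windows along the longest transcript, 15.98% were shared with another annotated gene in Ces2c, 10.75% in Ces2a, 9.09% in Ces3a, 7.68% in Ces3b and 1.39% in Ces1c, and none in the other 5 members. Of 50-base windows, 42.22% were shared in Ces2c, 30.9% in Ces3a, 26.13% in Ces3b, 22.24% in Ces2a and 16.98% in Ces1c. In the other 5 members 1.28% (Ces1d) to 3.36% (Ces2e) were shared. Counts are therefore uncertain to an extent that depends on the length taken, and most in the 5 members with shared 100-base windows. Ces3a overlaps Gm45724 on the opposite strand by 1 exonic base, and Ces1d overlaps Gm45909 without sharing exon bases.

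Depth on genes was 40020424 to 49894856 reads per mouse, with a median of 46618609. The hepatocyte marker Alb had at least 1680430 reads in every mouse. Reads of all strains were mapped to the C57BL/6J genome, and the mean share of unmapped reads ran from 2.11% in A/J on WD to 13.3% in CAST/EiJ on WD. Differences in level between strains therefore cannot be told apart from differences in how well their reads map. The share also differed by diet within strains. In PWK/PhJ it was 3.50% on CD (2.22% to 4.23% over mice) and 7.88% on WD (5.48% to 8.73%). It was 4.52% and 7.42% in WSB/EiJ and 10.8% and 13.3% in CAST/EiJ, but lower on WD in DBA/2J (6.45% and 4.77%) and A/J (2.25% and 2.11%). Whether this bears on the changes on WD was not tested. Summed over the 16 hepatocyte markers, the mean level was lower on WD than on CD in 7 of 7 strains. WSB/EiJ was at one end, from 199638 to 130129 CPM (read counts scaled to library size). DBA/2J was at the other, from 157912 to 140671 CPM. Alb weighs most in this sum, with a median of 3791477 reads per mouse against 432013 for Apoa1, the next marker. Taken gene by gene, the median log2 change of the 16 was smallest in CAST/EiJ, at -0.12. There 3 markers fell at an adjusted p below 0.05 and 0 rose. It was largest in PWK/PhJ, at -0.47, with 10 that fell and 1 that rose. Summed leukocyte markers were higher on WD in 6 of 7 strains, for example 123 against 254 CPM in PWK/PhJ. Adipocyte markers were near 0, with medians of 5 reads for Adipoq and 6 for Plin1, and 12 mice had more than 10 CPM of pancreatic acinar markers. The library labelled C57BL/6J CD replicate 2 stood apart, with a median correlation of 0.950 with its own group against 0.976 or more for every other mouse. In it Hsd3b5 was at 0.118 CPM (6.44 to 187 in the other mice of its group), Mup20 at 209 CPM (4154 to 7154) and Cyp2b9 at 183 CPM (0.147 to 26.8). Changes of the members on WD in C57BL/6J whose call or sign differs without it are therefore given both ways. So are steps between neighbouring strains on CD whose call differs. The other carboxylesterases, the gene lists and the shares of the members are given with this library only.

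Compared per kilobase of exon, Ces1c and Ces3a made up most of the carboxylesterase RNA. Their group means spanned 606 to 1303 CPM per kb for Ces1c and 399 to 1163 CPM per kb for Ces3a. Ces1c was the highest member in 7 of the 14 groups and Ces3a in the other 7. Together the pair accounted for 60.1% (A/J on WD) to 77.0% (PWK/PhJ on CD) of the summed level of the 10 members per kb. Ces3b reached at most 314 CPM per kb, Ces1d 292, Ces1f 211, Ces2a 137, Ces1e 126, Ces1g 122 and Ces2e 120. Ces2c was the lowest member in all 14 groups, at 0.421 CPM per kb in CAST/EiJ on CD and 18.4 CPM per kb in 129S1/SvImJ on WD.

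**Figure D1:**
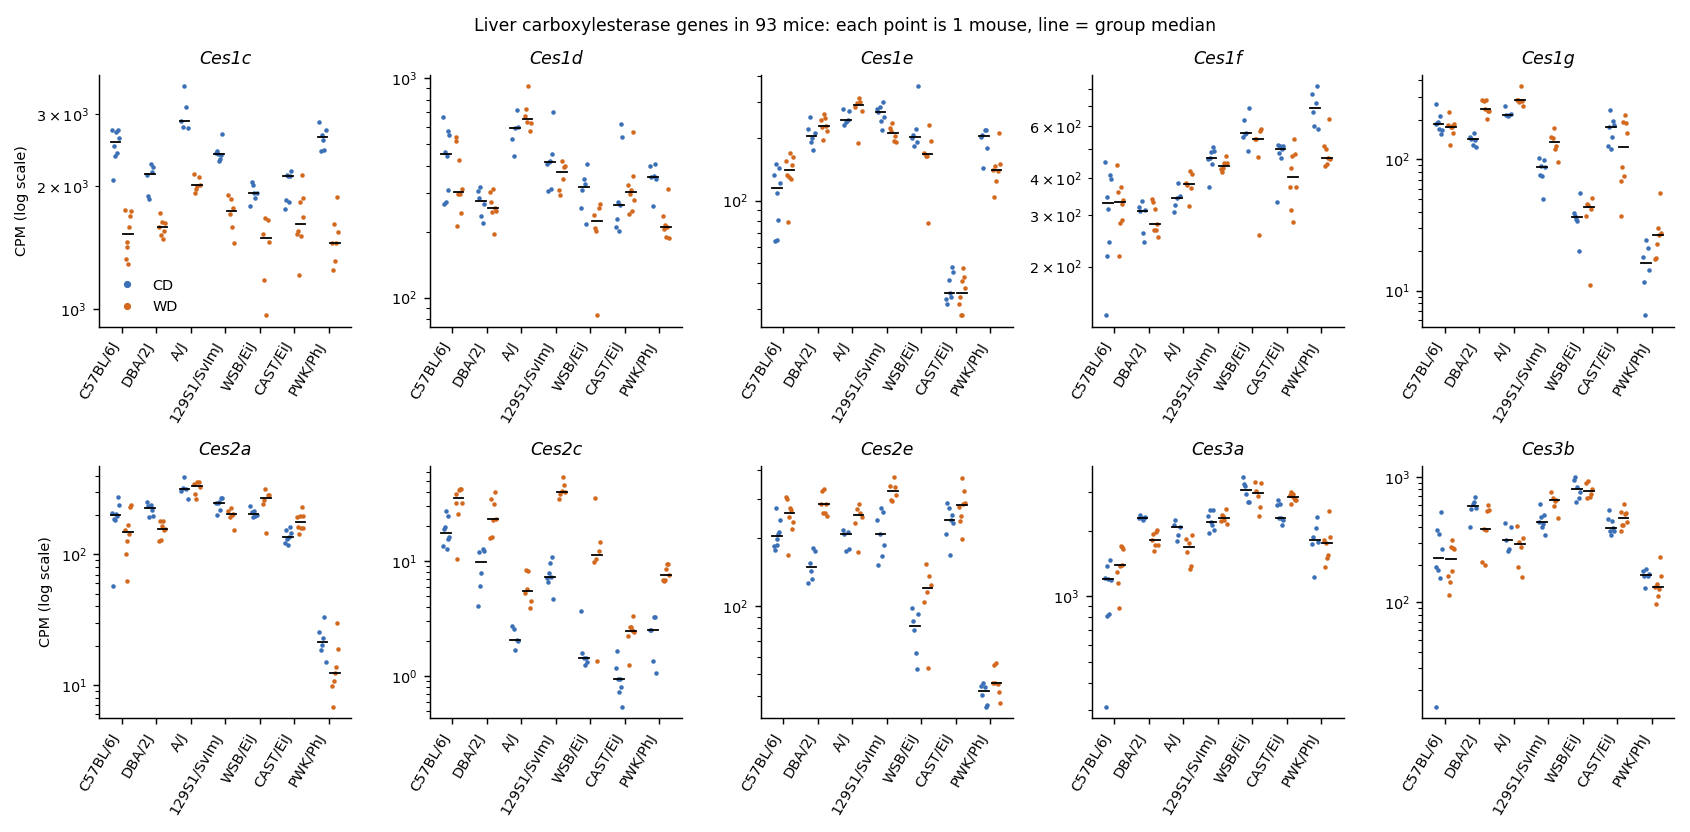
Each panel plots 1 carboxylesterase as CPM on a log axis, with 1 point per mouse, strains along the horizontal axis, CD in blue, WD in orange and a line at each group median. Ces1c lay lower on WD in every strain, Ces2c lay higher, and Ces2a and Ces2e were lowest in PWK/PhJ.

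The first question was how far the strains differ on the control diet. On CD, the level of 10 of 10 members differed between strains by limma's F test, where 93.7% of all genes did. Of the 210 pairs made by 10 members and 21 pairs of strains, 128 differed at an adjusted p below 0.05, against 48.3% of all gene and strain pairs. Pairs that include C57BL/6J or PWK/PhJ differed in 41 of 60 each, and pairs of the other strains in 33 to 38 of 60. Without the library that stood apart, 138 of the 210 pairs differed, 43 of 60 with C57BL/6J and 44 of 60 with PWK/PhJ. The others then had 42 (WSB/EiJ), 39 (CAST/EiJ), 37 (DBA/2J), 36 (129S1/SvImJ) and 35 (A/J) of 60, so WSB/EiJ was close to C57BL/6J. The share over all genes was computed for all pairs of strains together, not by strain. Whether C57BL/6J and PWK/PhJ differ more in these members than in all genes was therefore not tested. Among neighbours in the orders below, calls were then gained for Ces1f and Ces3a between WSB/EiJ and CAST/EiJ (adjusted p = 0.048 and 0.0092 without it), for Ces2a between C57BL/6J and CAST/EiJ (0.088 with it and 0.0013 without it) and for Ces3b between C57BL/6J and PWK/PhJ (0.63 and 0.0031).

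Among the Ces1 genes, the secreted esterase Ces1c varied least. Its mean on CD fell between 3026 ± 309 CPM in A/J (SD, n = 5) and 1928 ± 94.9 CPM in WSB/EiJ (n = 6), a ratio of 1.57. Along that order only 129S1/SvImJ and DBA/2J, as neighbours, differed (adjusted p = 0.040). Ces1d ran from 576 ± 101 CPM in A/J to 272 ± 39.2 CPM in DBA/2J (n = 6), and none of its neighbours in the order differed.

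Ces1e, Ces1f and Ces1g each had strains that stood apart. Ces1e was at 264 ± 27.0 CPM in 129S1/SvImJ (n = 7), 253 in A/J, 227 in WSB/EiJ, 209 in DBA/2J and 196 in PWK/PhJ, and these neighbours did not differ beyond their spread. It then dropped to 108 ± 34.6 CPM in C57BL/6J (n = 8, adjusted p = 1.4e-06 against PWK/PhJ) and to 38.5 ± 6.30 CPM in CAST/EiJ (n = 7, adjusted p = 1.7e-13 against C57BL/6J). No CAST/EiJ mouse reached the lowest mouse of any other strain on CD, at 47.7 CPM at most against 63.8 CPM at least. Ces1f was highest in PWK/PhJ (694 ± 92.8 CPM, n = 6), followed by WSB/EiJ, CAST/EiJ and 129S1/SvImJ, and the step from 129S1/SvImJ (463 ± 45.3 CPM) to A/J (340 ± 28.7 CPM) was the only one between neighbours that differed with all mice (adjusted p = 0.018). Ces1g went the other way. It was highest in A/J at 226 ± 16.7 CPM and lowest in WSB/EiJ at 36.8 ± 11.4 CPM and in PWK/PhJ at 15.9 ± 6.43 CPM, a ratio of 14.2 between the ends. The steps from DBA/2J to 129S1/SvImJ, from there to WSB/EiJ and from there to PWK/PhJ each differed (adjusted p = 0.0066, 4.5e-05 and 9.6e-05).

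In the Ces2 subfamily PWK/PhJ was at the low end for the xenobiotic hydrolases Ces2a and Ces2e. Ces2a was at 22.6 ± 6.37 CPM in PWK/PhJ on CD, where the 6 mice spanned 15.1 to 33.4 CPM. The next strain, CAST/EiJ, was at 138 ± 16.5 CPM (adjusted p = 1.3e-19) and A/J, the highest, was at 320 ± 44.3 CPM. Ces2e was between 199 and 238 CPM in CAST/EiJ, 129S1/SvImJ, C57BL/6J and A/J, at 153 ± 22.4 CPM in DBA/2J, at 78.4 ± 17.8 CPM in WSB/EiJ and at 41.2 ± 4.18 CPM in PWK/PhJ. From A/J downwards each of these steps differed (adjusted p = 0.037, 3.3e-08 and 2.4e-07). Ces2c, whose product hydrolyses acyl esters and glycerides, was scarce and the most variable member, with a ratio of 19.3 between strains. It was at 18.6 ± 5.26 CPM in C57BL/6J, 9.13 ± 3.65 CPM in DBA/2J and 7.70 ± 2.03 CPM in 129S1/SvImJ, and at or below 2.33 CPM in PWK/PhJ, A/J, WSB/EiJ and CAST/EiJ.

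Ces3a and Ces3b were both highest in WSB/EiJ, at 3055 ± 326 and 805 ± 144 CPM. Ces3a was lowest in C57BL/6J at 1047 ± 377 CPM, below the next strain, PWK/PhJ at 1828 ± 368 CPM (adjusted p = 4.5e-07). Ces3b was lowest in PWK/PhJ at 165 ± 19.3 CPM, which did not differ from C57BL/6J at 258 ± 158 CPM. The C57BL/6J group included the library that stood apart, which held the lowest value of its group for both genes, 312 CPM of Ces3a and 14.8 CPM of Ces3b. Without it Ces3a was at 1151 ± 249 CPM (n = 7) and still below PWK/PhJ (adjusted p = 6.7e-07), and Ces3b was at 293 ± 134 CPM, then above PWK/PhJ (adjusted p = 0.0031) and no longer different from A/J (adjusted p = 0.039 with the library and 0.32 without it). WSB/EiJ came from cohorts that held no other strain, so for WSB/EiJ strain and cohort cannot be told apart.

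The second question was what WD did to these genes in each strain. Of the 70 combinations of 10 members and 7 strains, 11 fell and 13 rose at an adjusted p below 0.05. In all 24, the direction was the same in every cohort of the strain. The calls were made on these same mice, so this agreement is largely built in and is no separate support. The same share among all called genes was not computed. In C57BL/6J 1 member fell and 3 rose, beside 11.9% of all genes that fell and 14.3% that rose. In DBA/2J 1 fell and 3 rose (7.77% and 10.2% of all genes), and in 129S1/SvImJ 1 fell and 3 rose (13.6% and 14.5%). In A/J 1 fell and 0 rose (4.64% and 4.39%), in WSB/EiJ 1 fell and 2 rose (3.97% and 4.97%), and in CAST/EiJ 1 fell and 0 rose (9.73% and 9.77%). PWK/PhJ had the most, with 5 that fell and 2 that rose (14.5% and 15.1%). The median change of the 10 members was between -0.05 and 0.14 on the log2 scale in 6 strains and -0.34 in PWK/PhJ, where the median of all genes was -0.01.

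**Figure D2:**
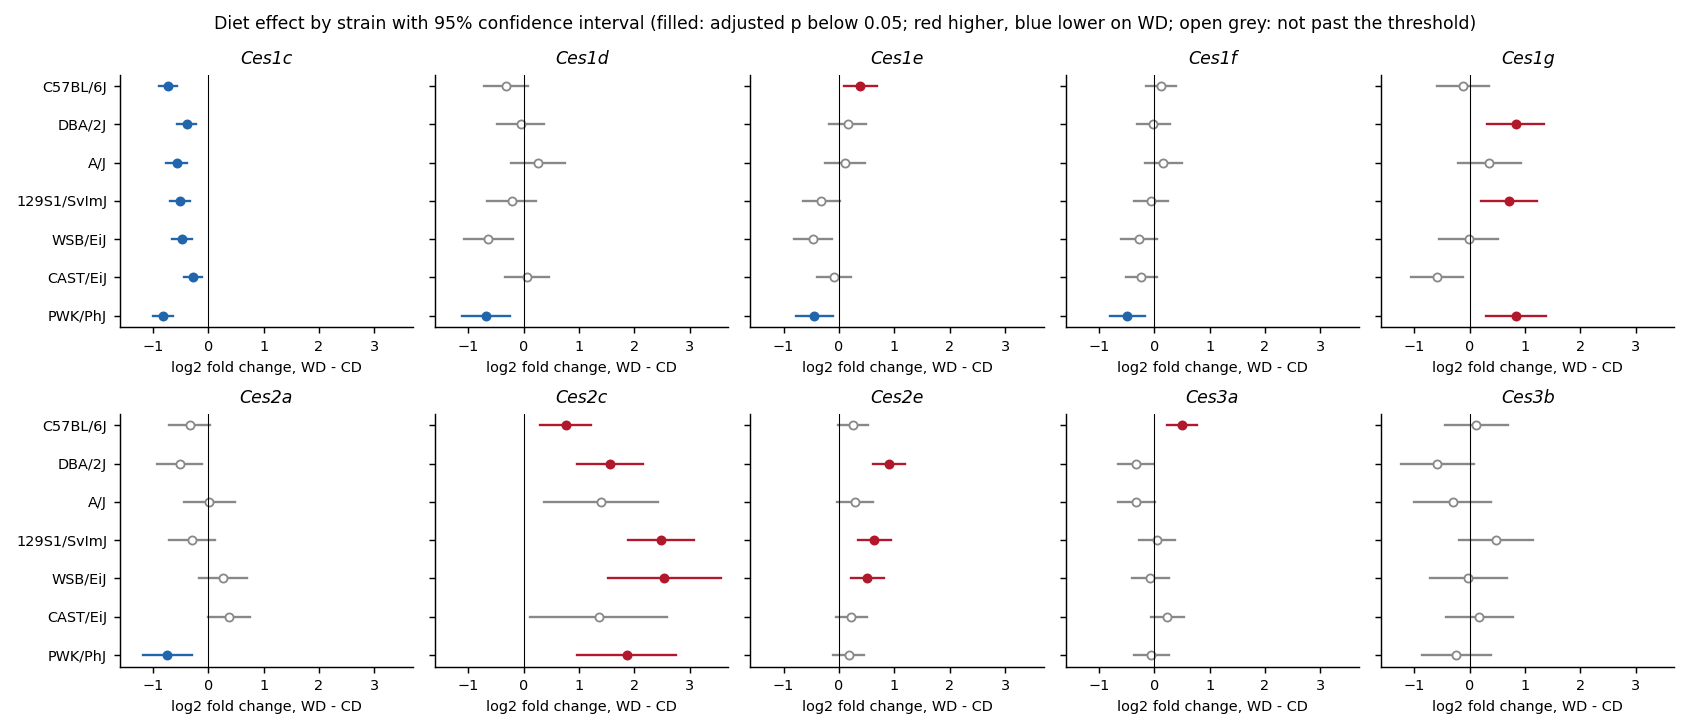
The log2 fold change of WD against CD is plotted for each carboxylesterase in each strain, with its 95% confidence interval, filled red or blue points mark an increase or decrease at an adjusted p below 0.05, and open points did not pass. Ces1c lies to the left of 0 in 7 strains, Ces2c lies to the right of 0 in 7 strains with 5 of them past the threshold, and most falling members are in PWK/PhJ.

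Ces1c, the secreted plasma esterase, was lower on WD in every strain, and it was the only member to pass the threshold in 7 of 7, although the CAST/EiJ call was lost with cohort in the model. In C57BL/6J the CD mice had 2074, 2569 and 2750 CPM (lowest, median and highest) and the WD mice 1289, 1525 and 1752 CPM. In PWK/PhJ they had 2439, 2635 and 2880 CPM on CD and 1249, 1455 and 1876 CPM on WD. In A/J the values were 2785, 2897 and 3521 CPM on CD and 1927, 2009 and 2141 CPM on WD. Within each of these strains every WD mouse lay below every CD mouse. The same held in DBA/2J, where the CD mice had 1863, 2145 and 2267 CPM and the WD mice 1485, 1589 and 1721 CPM. It held in 129S1/SvImJ, from 2308, 2404 and 2681 CPM to 1449, 1737 and 1897 CPM, and in WSB/EiJ, from 1785, 1924 and 2048 CPM to 964, 1494 and 1669 CPM. CAST/EiJ was the exception, where the values of 1763, 2116 and 2178 CPM on CD and 1213, 1616 and 2129 CPM on WD overlapped, and 5 of 8 WD mice lay below all CD mice.

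The decrease in Ces1c was 1.76-fold in PWK/PhJ (log2 change -0.82, SE 0.090, adjusted p = 9.3e-12) and 1.65-fold in C57BL/6J (-0.72, SE 0.081, adjusted p = 3.3e-11). It was 1.49-fold in A/J, 1.42-fold in 129S1/SvImJ, 1.39-fold in WSB/EiJ and 1.31-fold in DBA/2J, with adjusted p between 7.3e-06 and 6.5e-04. In CAST/EiJ it was 1.21-fold (log2 change -0.28, SE 0.082, adjusted p = 0.010), and the call was lost without CAST/EiJ WD replicate 3 (-0.21, adjusted p = 0.053), with cohort within strain in the model (-0.20, adjusted p = 0.066) and in separate fits (-0.28, adjusted p = 0.069). The size of the change differed between strains (F test, adjusted p = 0.0024). Compared with the mean of the other 6 strains, the change was weaker by 0.31 log2 units in CAST/EiJ (adjusted p = 0.013) and stronger in PWK/PhJ (difference -0.33, adjusted p = 0.013).

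Ces2c moved the other way, with higher means on WD in 7 of 7 strains and a called increase in 5. In 129S1/SvImJ it went from 4.70, 7.20 and 10.9 CPM to 35.0, 40.3 and 53.6 CPM, an increase of 5.59-fold (log2 change 2.48, SE 0.30, adjusted p = 5.8e-10). DBA/2J mice had 4.08, 9.85 and 12.7 CPM on CD and 15.8, 23.4 and 39.8 CPM on WD, a 2.94-fold increase (adjusted p = 6.3e-05). PWK/PhJ mice had 1.06, 2.53 and 3.27 CPM on CD and 6.78, 7.59 and 9.37 CPM on WD, a 3.63-fold increase (adjusted p = 7.4e-04). The groups did not overlap in any of these 3 strains. They did overlap in C57BL/6J, which had the highest CD level (12.7, 17.6 and 27.5 CPM against 10.5, 35.4 and 42.1 CPM) and the smallest called increase, 1.69-fold (adjusted p = 0.0088). They also overlapped in WSB/EiJ (1.24, 1.44 and 3.66 CPM against 1.34, 11.3 and 35.6 CPM), where the WD mice were spread widely around a 5.81-fold increase (log2 change 2.54, SE 0.51, adjusted p = 2.5e-04). In separate fits the Ces2c calls were lost in WSB/EiJ (adjusted p = 0.070) and C57BL/6J (adjusted p = 0.054).

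In A/J and CAST/EiJ the increase of Ces2c did not pass with limma-voom, at 2.64-fold (adjusted p = 0.072) and 2.55-fold (adjusted p = 0.12). The A/J groups nevertheless did not overlap, with 1.67, 2.05 and 2.73 CPM on CD and 3.94, 5.53 and 8.35 CPM on WD. CAST/EiJ had 0.543, 0.940 and 1.64 CPM on CD and 1.24, 2.49 and 3.30 CPM on WD. The quasi-likelihood test of edgeR gave adjusted p of 0.0038 in A/J and 0.0021 in CAST/EiJ, and DESeq2 gave 7.0e-04 and 1.6e-04, so the call in these 2 strains depends on the test. Equal effects across strains were rejected for Ces2c (F test, adjusted p = 0.0032), and the C57BL/6J change was smaller than the mean of the other strains by 1.10 log2 units (adjusted p = 0.017). Of its 50-base windows, 42.22% were shared with other genes, among them Ces2a, Ces2b and Ces2e.

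Ces2e rose in 3 strains. In DBA/2J it went from 127, 150 and 181 CPM to 252, 283 and 330 CPM with no overlap (log2 change 0.91, SE 0.15, adjusted p = 2.3e-06). In 129S1/SvImJ it went from 153, 209 and 271 CPM to 293, 324 and 373 CPM, again with no overlap (0.64, adjusted p = 6.8e-04). In WSB/EiJ the mice had 52.8, 82.2 and 98.6 CPM on CD and 53.5, 120 and 154 CPM on WD (0.51, adjusted p = 0.015), groups that overlapped. The WSB/EiJ call was lost when any of 4 mice was left out, CD replicates 4 and 5 and WD replicates 2 and 5, with values down to 0.41 and adjusted p up to 0.083. It was also lost with all genes of any count (0.50, adjusted p = 0.21), in separate fits (0.51, adjusted p = 0.17) and without the mice with acinar markers (0.40, adjusted p = 0.11). In the other 4 strains the change was between 0.18 and 0.29 and did not pass. The change in DBA/2J exceeded the mean of the other strains by 0.56 (adjusted p = 0.020, F test over strains 0.020).

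Ces1g, a lipase of the Ces1 subfamily, rose in 3 strains that differed widely in their level on CD. DBA/2J went from 124, 142 and 158 CPM to 202, 240 and 285 CPM (log2 change 0.83, SE 0.26, adjusted p = 0.016) and its groups did not overlap. In 129S1/SvImJ the values were 50.1, 87.3 and 103 CPM on CD and 95.5, 137 and 175 CPM on WD (0.71, adjusted p = 0.026), and the call was lost without CD replicate 5 (0.60, adjusted p = 0.079) or WD replicate 3 (0.64, adjusted p = 0.067). PWK/PhJ, at the low end, went from 6.48, 16.1 and 24.1 CPM to 17.5, 26.6 and 55.6 CPM (0.84, adjusted p = 0.014), and that call was lost without CD replicate 3 (0.60, adjusted p = 0.090) or WD replicate 6 (0.66, adjusted p = 0.060). The PWK/PhJ call was also lost with all genes of any count (0.83, adjusted p = 0.19). CAST/EiJ had the opposite sign, with 120, 176 and 238 CPM on CD and 37.2, 124 and 218 CPM on WD (-0.59, adjusted p = 0.066), which did not pass. Its difference from the mean of the other strains did, at -1.03 (adjusted p = 0.0034), as did the F test over strains (adjusted p = 0.0022).

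The members that fell besides Ces1c did so in PWK/PhJ. Ces1d, the triacylglycerol hydrolase, went from 261, 357 and 408 CPM to 188, 210 and 311 CPM (log2 change -0.68, SE 0.22, adjusted p = 0.012). Ces1f went from 587, 692 and 820 CPM to 440, 469 and 636 CPM (-0.49, SE 0.16, adjusted p = 0.014). Ces1e, egasyn, went from 144, 206 and 220 CPM to 104, 140 and 212 CPM (-0.45, SE 0.17, adjusted p = 0.034), a call that was lost when any of 6 mice was left out and without the mice with acinar markers (-0.46, adjusted p = 0.055). In each of these 3 genes the highest WD mouse, replicate 6, lay above the lowest CD mouse, so the groups overlapped. Ces2a, already scarce in PWK/PhJ, went from 15.1, 21.6 and 33.4 CPM to 6.87, 12.3 and 30.1 CPM (-0.74, SE 0.22, adjusted p = 0.0066), a call that was lost with all genes of any count (-0.75, adjusted p = 0.33). Its change in PWK/PhJ lay below the mean of the other strains by 0.66 (adjusted p = 0.043), whereas in CAST/EiJ the difference was 0.64 in the other direction (adjusted p = 0.026). For Ces1d and Ces1f the F test over strains did not pass (adjusted p = 0.076 and 0.099), so a difference between PWK/PhJ and the rest is not shown for them. Nor is it shown for Ces1e. Its F test passed (adjusted p = 0.0055), but its change in PWK/PhJ did not differ from the mean of the other strains (-0.41, adjusted p = 0.11).

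Hepatocyte markers fell with these genes in PWK/PhJ, where 10 of the 16 tested fell and 1 rose, and 8 of 15 leukocyte markers rose. In bulk liver, fewer hepatocytes and less RNA of a gene per hepatocyte cannot be told apart. With libraries scaled to the hepatocyte markers in place of all genes, the median change of all genes in PWK/PhJ became 0.40. On that scale Ces1d was at -0.26, Ces1e at -0.03, Ces1f at -0.07 and Ces2a at -0.30, none past the threshold, and Ces1c remained called at -0.40 (adjusted p = 3.6e-05). Across strains this scaling kept Ces1c below 0 in 7 of 7, with the call lost in 129S1/SvImJ (-0.16, adjusted p = 0.099) and CAST/EiJ (-0.06, adjusted p = 0.60), and kept the increase of Ces2c, which passed in 7 of 7. Passing everywhere was not particular to Ces2c on this scale. Ces2e, called in 3 strains before, also passed in 7 of 7, with adjusted p from 2.3e-07 in DBA/2J to 0.016 in CAST/EiJ. Because the median of all genes moved by 0.16 to 0.40 and 91.7% to 97.6% of the calls became increases, these values are relative to the hepatocyte markers only.

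**Figure D3:**
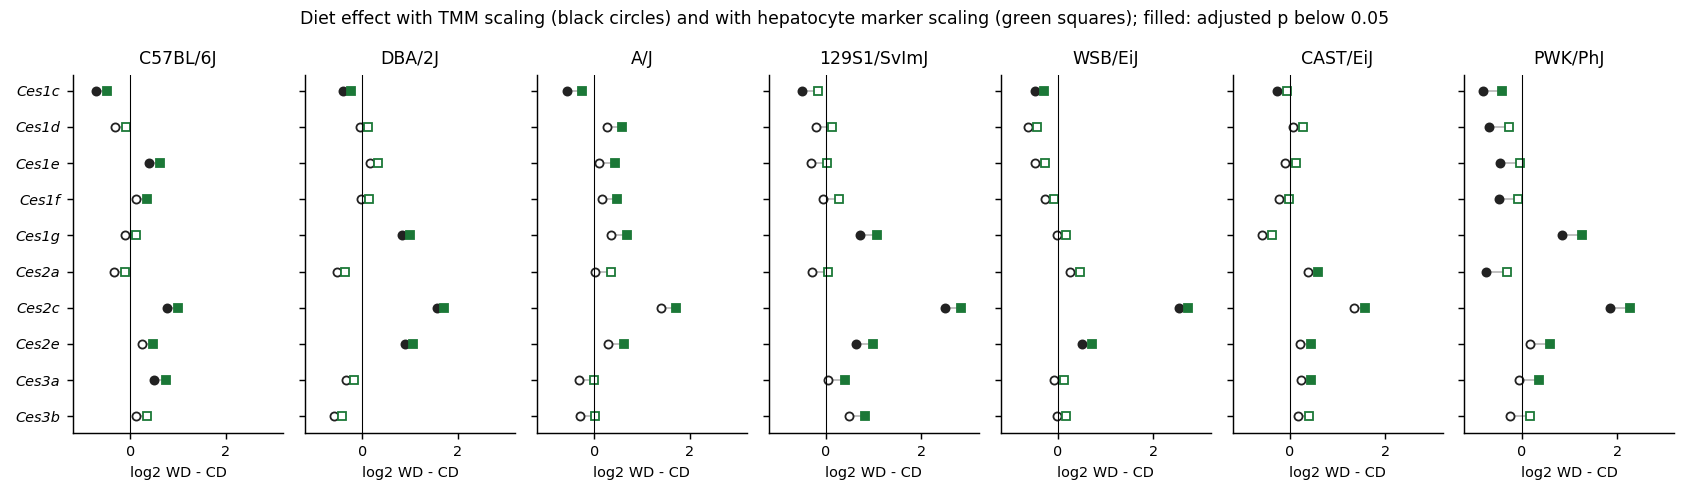
The log2 fold change of WD against CD is drawn for each carboxylesterase in 1 panel per strain, as black circles with TMM scaling and green squares with libraries scaled to the hepatocyte markers, filled where the adjusted p was below 0.05. The squares lie to the right of the circles, and Ces1c and Ces2c keep their sides of 0 in 7 of 7 strains.

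In C57BL/6J, Ces3a and Ces1e rose on WD. The CD mice had 312, 1194 and 1461 CPM of Ces3a and the WD mice 886, 1385 and 1701 CPM, an overlap that left a log2 change of 0.50 (SE 0.14, adjusted p = 0.0038). Without the library that stood apart the change was 0.28 (adjusted p = 0.034). With all mice the call was lost in separate fits (0.50, adjusted p = 0.21). Against the other 6 strains on average the Ces3a change was larger by 0.59 (adjusted p = 0.013), and 0.37 (adjusted p = 0.036) without the library that stood apart. Ces1e had 63.8, 115 and 149 CPM on CD and 79.0, 140 and 169 CPM on WD (0.39, SE 0.15, adjusted p = 0.042). Against the other 6 strains on average it was larger by 0.56 (adjusted p = 0.027). Both calls were lost without that library (0.29, adjusted p = 0.12, and 0.48, adjusted p = 0.057). The call of Ces1e on WD was also lost when any of 8 other mice was left out, with edgeR (adjusted p = 0.071), with DESeq2 (adjusted p = 0.052), with all genes of any count (adjusted p = 0.079), in separate fits (adjusted p = 0.21) and without the mice with acinar markers (adjusted p = 0.061). Ces2a gained a call without the library that stood apart, from -0.34 (adjusted p = 0.18) to -0.56 (adjusted p = 0.0057). The uncalled changes of Ces3b and Ces1f turned in sign, from 0.12 to -0.39 and from 0.12 to -0.03. A few members had separate or nearly separate groups without passing over all genes. In DBA/2J, Ces2a had 192, 227 and 253 CPM on CD and 127, 156 and 181 CPM on WD (log2 change -0.52, adjusted p = 0.070, and 0.043 with cohort within strain in the model), and Ces3a had 2237, 2291 and 2349 CPM on CD and 1605, 1815 and 2014 CPM on WD (-0.34, adjusted p = 0.14). Neither pair of groups overlapped. Both passed in separate fits (adjusted p = 0.0013 for Ces2a and 7.3e-04 for Ces3a) and with sample quality weights (0.0051 and 0.013). In A/J, Ces1g had 214, 220 and 255 CPM on CD and 256, 281 and 363 CPM on WD, also without overlap (0.36, adjusted p = 0.49). That change passed in separate fits (0.37, adjusted p = 0.011) and with hepatocyte marker scaling (0.69, adjusted p = 0.037). In WSB/EiJ, Ces1d had 216, 320 and 406 CPM on CD and 83.0, 223 and 266 CPM on WD (-0.64, adjusted p = 0.054, and 0.040 with cohort within strain in the model). Ces3b passed in no strain, with changes from -0.58 to 0.48, and its F test over strains gave an adjusted p of 0.42.

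Differences in the diet effect between strains were called for 7 of 10 members (Ces1c, Ces1e, Ces1g, Ces2a, Ces2c, Ces2e and Ces3a), where 37.5% of all genes were. Set against the mean of the other 6 strains, 3 members differed in C57BL/6J, 1 in DBA/2J, 3 in CAST/EiJ and 2 in PWK/PhJ, beside 4.69%, 7.77%, 14.5% and 16.3% of all genes. None differed in A/J, 129S1/SvImJ or WSB/EiJ, where 0.466%, 6.28% and 0.947% of all genes did. Without the library that stood apart these counts were 2 in C57BL/6J, 2 in DBA/2J, 3 in CAST/EiJ and 3 in PWK/PhJ. By the F test over strains 8 of 10 members then differed.

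Through these changes the makeup of the family shifted. Ces1c fell from 51.2% ± 6.18 (SD, n = 8) to 36.3% ± 5.02 (n = 8) of the members' summed level per kb in C57BL/6J, while Ces3a went from 17.7% ± 4.22 to 28.7% ± 3.34. In PWK/PhJ the share of Ces1c went from 47.9% ± 5.13 to 37.7% ± 1.61, and Ces3a from 29.1% ± 4.19 to 38.7% ± 1.62. The share of Ces1c was lower on WD in the other strains too, by the least in DBA/2J (35.8% ± 2.25 to 32.2% ± 1.83). These shares were not tested, because they rest on the same counts as the changes above.

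**Figure D4:**
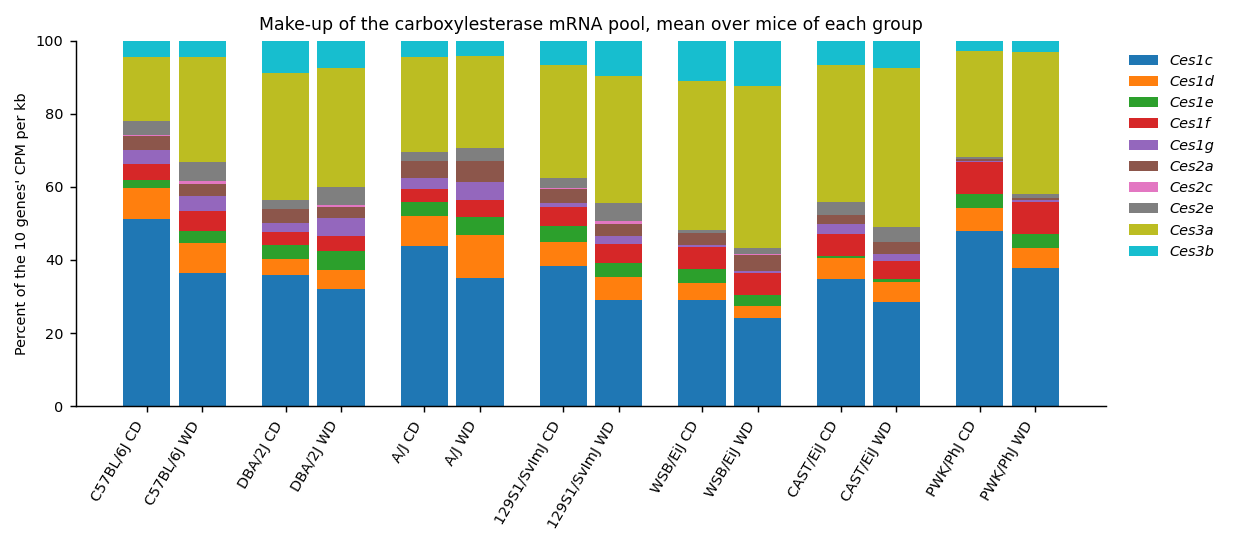
Stacked bars give the mean share of each carboxylesterase in the summed level of the 10 members (CPM per kb, in percent) for the 14 groups of strain and diet. Ces1c and Ces3a together take 60.1% to 77.0%, and the Ces1c segment is shorter on WD in each strain.

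Of the 10 other carboxylesterase genes, Ces5a and Ces2f had too few reads to be tested, and Ces1b was closest to Ces1c in behaviour. Ces1b fell on WD in 5 strains, for example from 47.9, 60.4 and 95.4 CPM to 31.7, 36.2 and 58.1 CPM in C57BL/6J (log2 change -0.66, adjusted p = 4.5e-08) and by 0.67 in PWK/PhJ (adjusted p = 3.7e-07). It shares 100-base windows with Ces1c. Its CD level was 62.9 ± 15.3 CPM in C57BL/6J and 46.9 ± 3.85 CPM in PWK/PhJ, but between 273 and 520 CPM in the other 5 strains. Ces2h was at 0.634 to 1.65 CPM on CD in C57BL/6J, DBA/2J, A/J and 129S1/SvImJ and at 78.1 to 125 CPM in the wild-derived WSB/EiJ, CAST/EiJ and PWK/PhJ. It rose on WD in A/J, WSB/EiJ and CAST/EiJ, with a log2 change of 0.55 (adjusted p = 1.3e-06) in WSB/EiJ. Ces2b was at 117 ± 17.8 CPM on CD in CAST/EiJ, at 8.03 ± 1.02 CPM in PWK/PhJ and below 1 CPM elsewhere. In 129S1/SvImJ Ces2b went from 0.0211, 0.213 and 0.694 CPM to 2.83, 3.81 and 4.67 CPM (4.48, SE 0.81, adjusted p = 1.2e-05). Ces2g fell in PWK/PhJ (-0.36, adjusted p = 2.5e-04) and rose in DBA/2J (0.24, adjusted p = 0.025).

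**Figure D5:**
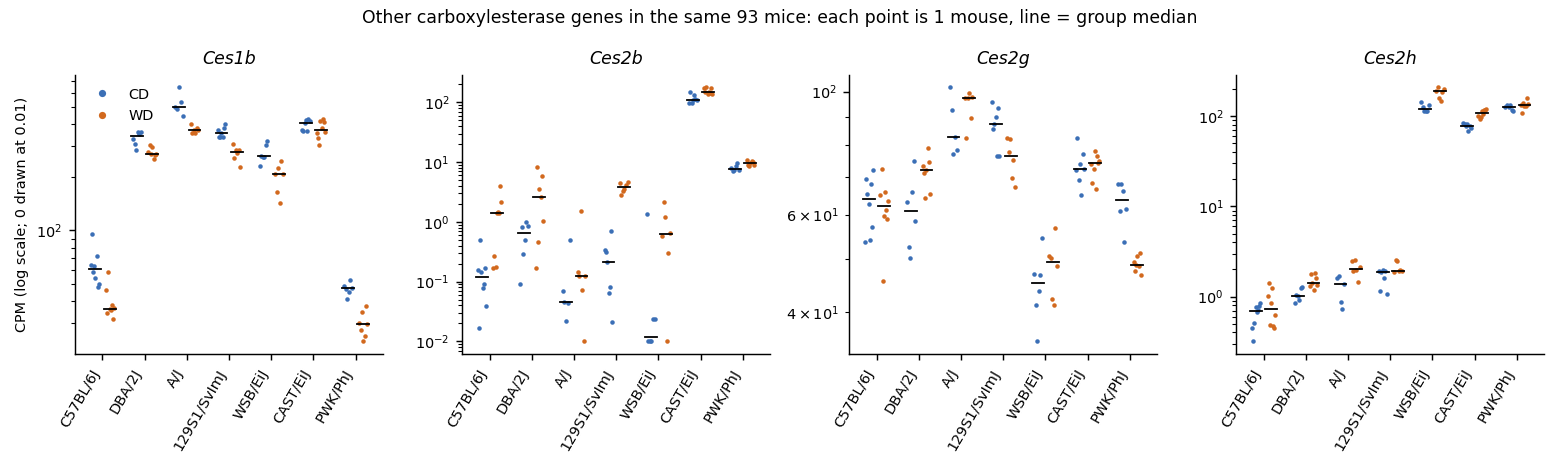
CPM on a log axis for Ces1b, Ces2b, Ces2g and Ces2h, with 1 point per mouse by strain, CD in blue, WD in orange, a line at each group median and values of 0 drawn at 0.01. Ces2h lies at 69.3 CPM or more in every WSB/EiJ, CAST/EiJ and PWK/PhJ mouse and at 2.58 CPM or less in every mouse of the other 4 strains.

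Genes of the same pathways gave the setting of these changes. For the lists below, the shares of all genes that fell and rose were 11.9% and 14.3% in C57BL/6J and 7.77% and 10.2% in DBA/2J. They were 4.64% and 4.39% in A/J, 13.6% and 14.5% in 129S1/SvImJ and 3.97% and 4.97% in WSB/EiJ. In CAST/EiJ they were 9.73% and 9.77%, and in PWK/PhJ 14.5% and 15.1%. Among 14 targets of CAR and PXR, 6 rose and 0 fell in 129S1/SvImJ, 4 rose and 0 fell in DBA/2J, 3 rose and 1 fell in C57BL/6J, 2 rose and 1 fell in WSB/EiJ and in CAST/EiJ, 1 rose and 0 fell in A/J, and 1 rose and 1 fell in PWK/PhJ. Their median log2 change was 0.28 to 0.55 in 6 strains and -0.02 in PWK/PhJ, beside medians of all genes within 0.02 of 0. Cyp3a11, a cytochrome P450 induced through PXR, rose in 5 strains, from 309 to 1841 CPM in 129S1/SvImJ (2.60, adjusted p = 2.5e-13) and from 224 to 2210 CPM in CAST/EiJ (3.32, adjusted p = 1.7e-20). Nr1i2, which encodes PXR, fell in CAST/EiJ (-0.59, adjusted p = 0.0019).

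Among 9 other hydrolases of foreign compounds, both C57BL/6J and DBA/2J had 4 that rose and 1 that fell, and 1 rose and 4 fell in PWK/PhJ. In A/J 1 rose and 2 fell, in 129S1/SvImJ 2 rose and 2 fell, in WSB/EiJ 1 rose and 1 fell, and in CAST/EiJ 1 rose and 0 fell. Ephx1, the microsomal epoxide hydrolase, rose 1.32 on the log2 scale in DBA/2J (adjusted p = 4.6e-11), and the paraoxonase Pon1 fell by 0.83 in PWK/PhJ (adjusted p = 1.2e-06). Of 14 lipases and their cofactors, between 1 and 4 fell in each strain, and those that rose numbered 3 (129S1/SvImJ), 1 (C57BL/6J) and 1 (PWK/PhJ). Some of these counts are near the shares of all genes, such as 2 of 14 that fell in 129S1/SvImJ, where 13.6% of all genes fell. Pnpla3, a lipid droplet acyl hydrolase, went from 106 to 30.2 CPM in PWK/PhJ (-1.64, adjusted p = 3.3e-04), and Lpl, lipoprotein lipase, rose from 10.5 to 65.8 CPM (2.64, adjusted p = 2.2e-08).

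Of 10 genes of VLDL assembly, between 0 and 3 fell and between 0 and 2 rose in each strain, with 3 that fell and 1 that rose in PWK/PhJ, where 14.5% and 15.1% of all genes did, and 2 and 2 in C57BL/6J, where 11.9% and 14.3% did. Tm6sf2, needed for lipidation of VLDL, fell in PWK/PhJ from 32.1 to 12.6 CPM (-1.34, adjusted p = 5.8e-13). Cidec, a lipid droplet protein, rose from 20.2 to 143 CPM in C57BL/6J (3.17, adjusted p = 8.3e-10) and fell in CAST/EiJ (-1.76, adjusted p = 0.0019). Among 15 targets of PPARα, the nuclear receptor of fatty acid oxidation, 8 fell and 0 rose in CAST/EiJ (median -0.72), and no more than 2 passed in either direction in any other strain. Cyp4a10 there went from 515 to 25.9 CPM (-3.37, adjusted p = 2.8e-05). Of 10 nuclear receptors and partners, 3 fell in 129S1/SvImJ, 2 in CAST/EiJ and 2 in PWK/PhJ, and 2 rose in DBA/2J, 1 in C57BL/6J and 1 in PWK/PhJ. The shares of all genes that fell were 13.6%, 9.73% and 14.5% in the first 3 of these strains. Those that rose were 10.2% in DBA/2J, 14.3% in C57BL/6J and 15.1% in PWK/PhJ.

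Across the 14 group means, the member pair most alike was Ces1g and Ces2e (Pearson's r = 0.89), followed by Ces3a and Ces3b (0.80), and Ces1f and Ces1g were most opposed (-0.83). The groups share strains and each pair of groups shares a genome, so these are descriptions over 14 means. The gene outside the family most like each member was Mpc2 for Ces1c (0.90), Kxd1 for Ces1d (0.96), Ids for Ces1e (0.97), Ogfod3 for Ces1f (0.92), Ptrh2 for Ces1g (0.92), Eif2ak1 for Ces2a (0.98), Flii for Ces2c (0.95), Gstm2 for Ces2e (0.96), Sult2a8 for Ces3a (0.94) and Lamp2 for Ces3b (0.93).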

How the data were processed

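Libraries were prepared and sequenced by the authors from liver RNA of 93 male mice and mapped with STAR (version 2.7.1a in the submitters' processing notes) to the C57BL/6J genome. The authors deposited raw counts of reads per gene and mouse, without normalization. The strand setting of the counting is not given in the sources used here. The 4 summary lines that name no gene held 19.9% to 34.7% of the reads and were left out. No mouse had counts identical to another. Groups came from the strain and diet labels. The labels give no litter for the mice, so p-values measure the spread between these mice, and cohort is the only batch they name.

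The filter on low counts was edgeR's filterByExpr (version 4.0.16, minimum count 10) and libraries were scaled by TMM. A single voom fit in limma 3.58.1 under R 4.3.3 held a mean for each of 14 groups. CPM used TMM library sizes. WD was compared with CD in each strain with Benjamini-Hochberg adjustment over 19110 genes and a threshold of 0.05. The F tests and the tests of 1 strain against the mean of the other 6 came from the same fit, and the 21 pairs of strains on CD were adjusted jointly over all genes. Adjusted p-values are from limma unless another tool is named. The confidence intervals plotted are limma's. The scripts were tested on simulated data. Alternatives were edgeR's quasi-likelihood test, DESeq2 1.42.0, upper-quartile and hepatocyte marker scaling, other filters, cohort within strain, the RNA integrity number as a covariate, separate fits, sample quality weights, omission of the mice with acinar markers, and omission of each mouse in turn. The last for strains other than A/J, and the omission of the mice with acinar markers, were chosen after seeing the data.

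The 10 members and all gene lists were chosen with earlier results of these data known. Besides the members, up to 2 genes past the threshold with the largest change were eligible for each list and strain, and for each member the gene outside the family with the highest correlation over 14 group means of log2 CPM (prior count 2), among genes with a mean of at least 1. Genes used to describe the library that stood apart, and other named genes outside this rule, were chosen after their values were seen.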

Additional observations from a re-analysis of the deposited data

Results flagged for a closer look

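In 18 of the 140 groups made by 10 members, 7 strains and 2 diets, the highest or lowest mouse lay far from the others of its group by Dixon's criterion. Chance alone flags about 1 in 20 groups, and the groups are not independent, because 1 mouse can stand out in several members. PWK/PhJ WD replicate 6 was the highest of its group for Ces1d (311 CPM), Ces1e (212 CPM), Ces1f (636 CPM) and Ces1g (55.6 CPM). WSB/EiJ WD replicate 4 was the lowest for Ces1d (83.0 CPM), Ces1f (256 CPM) and Ces1g (11.1 CPM). 129S1/SvImJ CD replicate 7 was the highest for Ces1c (2681 CPM) and Ces1d (699 CPM).

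Single genes stood out in the remaining mice. Ces1d was high in CAST/EiJ WD replicate 6 (569 CPM). Ces1e was low in C57BL/6J WD replicate 3 (79.0 CPM) and A/J WD replicate 3 (189 CPM) and high in WSB/EiJ CD replicate 6 (357 CPM). Ces1f was low in CAST/EiJ CD replicate 1 (332 CPM). Ces1g was high in A/J CD replicate 1 (255 CPM) and A/J WD replicate 4 (363 CPM). Ces2a was low in C57BL/6J CD replicate 2 (57.5 CPM), the library that stood apart over all genes. Ces2c was high in WSB/EiJ CD replicate 1 (3.66 CPM).

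The change on WD in 1 strain differed from the mean of the other 6 by limma's test of the difference itself in 9 cases, given as log2 differences. For Ces1c they were 0.31 in CAST/EiJ (adjusted p = 0.013) and -0.33 in PWK/PhJ (adjusted p = 0.013). For Ces1e it was 0.56 in C57BL/6J (adjusted p = 0.027, lost without the library that stood apart) and for Ces1g -1.03 in CAST/EiJ (adjusted p = 0.0034). For Ces2a they were 0.64 in CAST/EiJ (adjusted p = 0.026) and -0.66 in PWK/PhJ (adjusted p = 0.043). The others were -1.10 for Ces2c in C57BL/6J (adjusted p = 0.017), 0.56 for Ces2e in DBA/2J (adjusted p = 0.020) and 0.59 for Ces3a in C57BL/6J (adjusted p = 0.013).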

How the results depend on the processing

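Of the 24 calls on WD, 12 kept direction and threshold in all 11 other settings, 18 when any 1 mouse of the strain was left out, and 11 in all of these. No called change reversed. Ces3a in PWK/PhJ, uncalled at -0.05, passed at 0.36 (adjusted p = 0.019) with hepatocyte marker scaling. Of 1115 values computed for uncalled changes, 48 had the opposite sign to the reported one.

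Counts of members that passed moved by more than 1.5 times as follows. With edgeR and with DESeq2, 1 rose in A/J and 1 in CAST/EiJ. With hepatocyte marker scaling, 5 rose in C57BL/6J, 6 in A/J, 5 in 129S1/SvImJ, 4 in CAST/EiJ and 4 in PWK/PhJ, and 0 fell in 129S1/SvImJ, 0 in CAST/EiJ and 1 in PWK/PhJ. That setting moved the median change of all genes upward in every strain. With every gene that had any count, 1 rose in WSB/EiJ and 1 in PWK/PhJ, and 2 fell in CAST/EiJ. With at least 10 counts in every mouse, 2 fell in WSB/EiJ. With cohort within strain, 2 fell in DBA/2J, 2 in WSB/EiJ and 0 in CAST/EiJ. With separate fits, 0 rose in C57BL/6J, 2 in A/J, 0 in WSB/EiJ and 3 in CAST/EiJ, and 3 fell in DBA/2J, 3 in 129S1/SvImJ and 0 in CAST/EiJ. With quality weights, those that fell were 2 (C57BL/6J), 3 (DBA/2J), 2 (A/J) and 2 (129S1/SvImJ), and 1 rose in A/J. Without the 12 mice with acinar markers, 2 fell in WSB/EiJ and 2 in CAST/EiJ, and 1 rose in WSB/EiJ. Smaller moves were 2 in place of 3 that rose in C57BL/6J with edgeR, DESeq2, any count and no acinar mice, 4 in place of 5 that fell in PWK/PhJ with any count and no acinar mice, and 4 in place of 3 that rose in 129S1/SvImJ with separate fits and quality weights. The causes of these moves were not tested. Upper-quartile scaling moved the share of increases among all calls from 51.6% to 67.1% in 129S1/SvImJ and from 48.6% to 59.0% in A/J. Per kb of the longest transcript, Ces1c was at 1382 and Ces1f at 163 CPM per kb in C57BL/6J on CD, against 1088 and 95.5 per kb of merged exons.

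With 1 mouse left out, members that fell numbered 4 to 5 in PWK/PhJ, 0 to 2 in CAST/EiJ, 1 to 2 in C57BL/6J, 1 to 3 in WSB/EiJ and 1 to 1 in A/J, DBA/2J and 129S1/SvImJ. Those that rose numbered 1 to 2 in PWK/PhJ, 0 to 0 in CAST/EiJ and A/J, 2 to 3 in C57BL/6J and 129S1/SvImJ, 3 to 3 in DBA/2J and 1 to 2 in WSB/EiJ. Members whose diet effect differed between strains numbered 7 to 8, levels that differed on CD 10 to 10, and pairs that differed 125 to 138. Ces1e in C57BL/6J lost its call without any of 9 mice (CD replicates 2, 4 and 6, WD replicates 1, 2, 4, 5, 7 and 8), down to 0.29, and Ces1e in PWK/PhJ without any of 6 (CD replicates 1, 2, 4 and 5, WD replicates 2 and 4), down to -0.38. Calls were gained by Ces1d in WSB/EiJ without CD replicate 1 or 5 or WD replicate 1, 5 or 6, by Ces1e in WSB/EiJ without WD replicate 5 or 6, and by Ces1g in CAST/EiJ without CD replicate 1 or 4 or WD replicate 4, 6, 7 or 8. No paired analysis was possible because the labels give the mice no number that ties animals of different groups together. Ces2c had the fewest reads of the members, 21 to 2658 per mouse over all groups, so counting error weighs most there.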
